A study of Homo sapiens with 18 samples.

Results

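Expression of 9 genes of the interferon receptor pathway was examined in 2 human breast cancer cell lines in which G0S2 had been induced with doxycycline. With earlier results of these data known, the genes were chosen by their place in the pathway. They were the receptor chains IFNAR1 and IFNAR2, the kinases JAK1 and TYK2, the transcription factors STAT2, IRF9, IRF7 and IRF1, and the inhibitor SOCS1. They are 9 of the 16410 genes listed in either deposited table. All 9 had a row in the MDA-MB-231 table, and 8 had one in the T47D table. The T47D level of SOCS1 was therefore not analysed here.

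MDA-MB-231 is a breast cancer line without estrogen receptor, and T47D is a line that has it. Doxycycline was used at 0.5 ug/ml, and each line was sampled without it (day 0, the control) and on day 3 and day 15. The 6 groups held 3 libraries each, 18 in all. The labels name only overexpression of G0S2, which encodes an inhibitor of the fat-cell lipase ATGL, and do not say whether the control cells carry the same construct. The design text of the series names parental cells and Aza-resistant ones, a contrast that the sample labels do not hold, and the labels were followed. No cells given doxycycline without G0S2, and no untreated cells of day 3 or day 15, were analysed here. G0S2, doxycycline, the vector and time in culture therefore cannot be told apart.

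Read depth lay between 37.0 and 52.4 M reads per library in MDA-MB-231 and between 40.1 and 51.0 M in T47D. The mean G0S2 level was 0.517 CPM (read counts scaled to library size) in the T47D controls, 860.8 CPM at day 3 and 831.7 CPM at day 15. In MDA-MB-231 the corresponding means were 25.2, 1473 and 1202 CPM. All 12 T47D identity genes, ESR1 among them, were listed in T47D, and 6 of the 12 were listed in MDA-MB-231, with ESR1 not among them. The leukocyte genes PTPRC, CD3D and CD3E were not listed in T47D. Of the libraries, T47D day 15 replicate 2 stood apart: over genes its counts differed from those of the others in its group by a chi-square per degree of freedom of 14.5 and 23.6, against 1.74 to 5.92 for all other pairs within a group. In bulk RNA a change in the share of expressing cells and a change in RNA per cell cannot be told apart.

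Type I interferons bind a receptor made of IFNAR1 and IFNAR2. TYK2, held by IFNAR1, and JAK1, held by IFNAR2, then phosphorylate STAT proteins, of which STAT2 joins IRF9 in the complex ISGF3. ISGF3 binds interferon-stimulated response elements (ISREs) in its target genes, while STAT dimers bind gamma-activated sites (GAS). STAT2, IRF9 and IRF7 are themselves known interferon target genes, which gives the pathway a positive loop. IRF7 drives transcription of interferon genes, IRF1 is a classical target of interferon gamma, and SOCS1 is a feedback inhibitor of the JAK kinases.

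Promoter sequence was read from RefSeq (GRCh38.p14) for the 7 members with an entry in its promoter table, which leaves out IFNAR2 and IRF7. The search was for the ISRE core, GAAA, any 2 bases (NN) and GAAA, or TTTC, NN and TTTC on the other strand, and for the GAS core, TTCNNNGAA, which reads the same on both strands. The stretches of 250 bases before the start sites of IRF9, IRF1 and STAT2 are shown because these members had called rises in T47D. Matches to the GAS core are in capitals.
IRF9: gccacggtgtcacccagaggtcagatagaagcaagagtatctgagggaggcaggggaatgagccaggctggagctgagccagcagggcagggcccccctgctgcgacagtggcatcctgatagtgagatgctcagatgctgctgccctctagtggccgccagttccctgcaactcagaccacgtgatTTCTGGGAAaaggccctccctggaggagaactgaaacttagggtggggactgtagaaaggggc
IRF1: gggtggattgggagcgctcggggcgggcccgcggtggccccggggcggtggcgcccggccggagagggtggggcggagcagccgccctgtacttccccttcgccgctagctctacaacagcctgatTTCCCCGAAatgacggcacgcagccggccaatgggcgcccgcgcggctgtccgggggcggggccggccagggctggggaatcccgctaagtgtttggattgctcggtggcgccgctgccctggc
STAT2: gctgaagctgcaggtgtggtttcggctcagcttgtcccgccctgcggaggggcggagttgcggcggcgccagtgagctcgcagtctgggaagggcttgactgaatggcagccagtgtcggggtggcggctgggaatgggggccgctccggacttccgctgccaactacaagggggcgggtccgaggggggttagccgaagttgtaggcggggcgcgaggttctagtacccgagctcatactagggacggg
The IRF9 stretch (chr14:24161015-24161264, plus strand) holds TTCTGGGAA from position 188, counted from 1 at the 5′ end as printed. The IRF1 stretch (chr5:132490774-132491023, minus strand) holds TTCCCCGAA from position 127. Neither core occurs in the STAT2 stretch (chr12:56360108-56360357, minus strand). SOCS1 holds the ISRE match GAAAGAGAAA in its window. In the table as a whole, 3.57% of the 35116 windows of 300 bases hold the ISRE core and 7.66% hold the GAS core. Counted by gene, these are 4.38% and 9.38% of 27305 genes. Among the ISGF3 target genes described further on, 24 of 35 genes with a window (68.6%) hold the ISRE core and 11 hold the GAS core. A match describes letters, not a bound site.

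Fold changes below are log2 differences of the deposited log2 CPM values, which carry a pseudocount of 3 reads and so understate changes of genes with few reads. SE is the standard error in the limma fit over the 9 libraries of a line, each group has n = 3, and called means an adjusted p (Benjamini-Hochberg, whole table) under 0.05. Nothing in the labels states that the libraries in a group are separate cultures. The p-values therefore reflect library-to-library spread alone, which may be technical. Comparisons within a line share libraries.

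In T47D at day 3, 4 of the 8 members tested rose against control, namely IRF9, IRF7, IRF1 and STAT2. JAK1 fell slightly, and IFNAR1, IFNAR2 and TYK2 were not called. Over all genes of the table, 1.16% were called higher and 0.718% lower. The median log2 fold of the 8 members was 0.35, beside -0.00264 over all genes. At day 15, 3 of the 8 were called, all higher (IRF9, IRF7 and STAT2), where 11.2% of all genes were called in either direction. Between day 3 and day 15, 4 of the 8 fell (IRF9, IRF7, IRF1 and STAT2), where 3.35% of all genes were called lower. None of the 8 rose between these days, where 2.23% of all genes did. Without T47D day 15 replicate 2, the same 3 members were called higher at day 15, where 25.1% of all genes were called. The fold was then 1.62 for IRF9, 0.92 for IRF7, 0.21 for STAT2 and 0.01 for IRF1. Between day 3 and day 15 the same 4 members then fell, where 9.89% of all genes were called lower. JAK1 was then called higher by 0.12 (adjusted p 0.00016), where 7.74% of all genes were called higher. The plot of CPM per library gives every value for each member, and the plot of log2 folds by gene gives each difference with its interval.

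**Figure D1:**
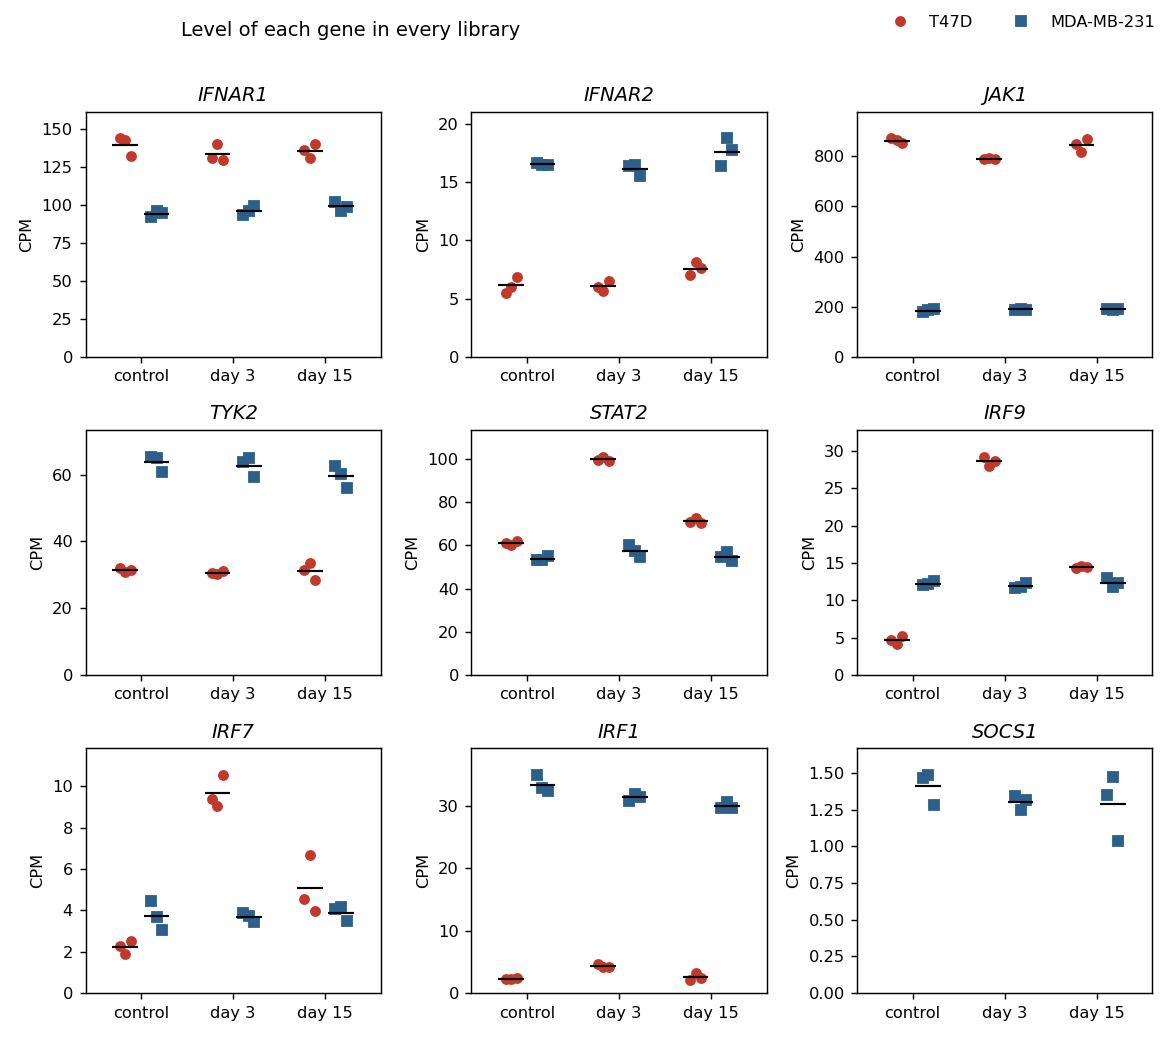
Expression of the 9 members in each library, in CPM (y axis, linear, from 0), by group (control, day 3, day 15) for T47D and MDA-MB-231; each point is a library and the black line is the group mean of 3 libraries. In T47D the day 3 points of IRF9, IRF7, IRF1 and STAT2 lie above all their control points, while in MDA-MB-231 the groups lie close together. Levels of the lines come from tables that were normalized separately.

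**Figure D2:**
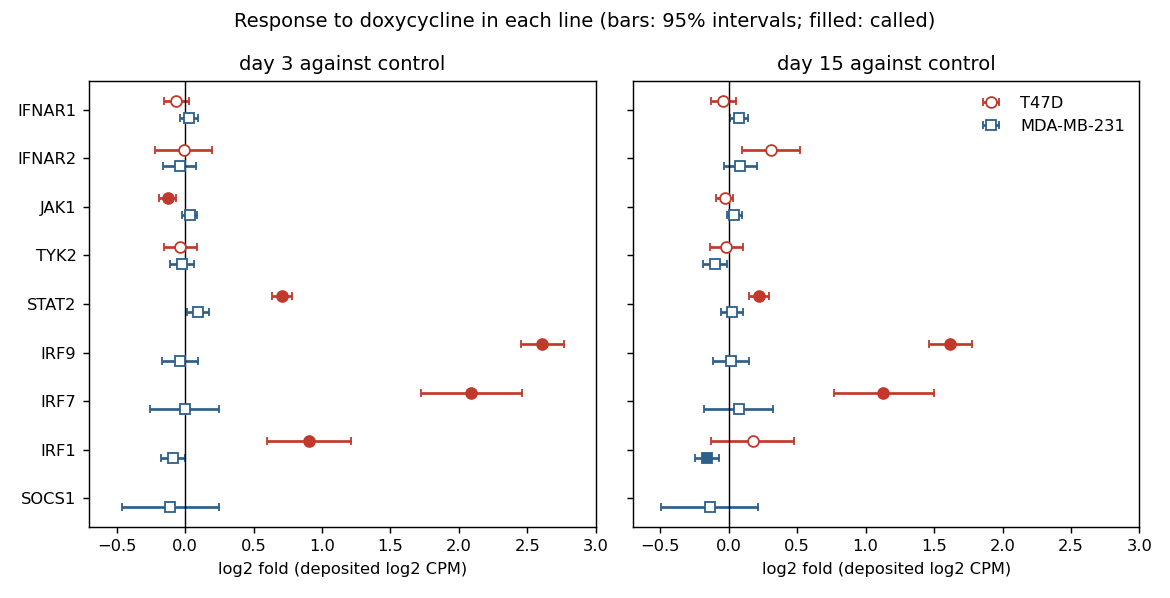
Log2 fold against control (x axis) of each member (rows) at day 3 and day 15 in each line, with 95% intervals of the limma fit; filled points were called at an adjusted p under 0.05 and open points were not. The day 3 fold of IRF9 in T47D was 2.61, and the day 15 fold was 1.62, while its folds in MDA-MB-231 lie near 0.

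The receptor chains among the members, IFNAR1 and IFNAR2, were not called in either line at either time. IFNAR1 (chr21:33324477-33359862 on GRCh38, plus strand) binds TYK2 and signals for every type I interferon. In T47D its levels were 143.8, 142.6 and 132.2 CPM in the controls, 130.9, 140.2 and 129.8 CPM at day 3, and 136.0, 131.2 and 140.4 CPM at day 15, so the groups overlapped. Its log2 fold at day 3 was -0.06, with a 95% interval from -0.155 to 0.0303. In MDA-MB-231 it ranged from 91.9 to 102.1 CPM, and its day 15 fold was 0.07 (SE 0.032), with an adjusted p of 0.163.

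IFNAR2 (chr21:33229901-33265675, plus strand) is the chain that binds interferon with high affinity. Its T47D levels were 5.51, 5.97 and 6.89 CPM in the controls, 5.99, 5.68 and 6.51 CPM at day 3, and 6.99, 8.14 and 7.59 CPM at day 15. Every day 15 library was above every control library, by a log2 fold of 0.31 (SE 0.0985) that missed the threshold at an adjusted p of 0.0623. Without control replicate 3, the highest of the controls, the fold was 0.39 and the adjusted p 0.0331. IFNAR2 shares exon sequence with IL10RB-DT on the opposite strand and with the same-strand gene model AP000295.1. In MDA-MB-231 IFNAR2 ranged from 15.5 to 18.7 CPM, and its day 15 fold was 0.09, with a 95% interval from -0.0324 to 0.206. The use of strand in counting is not given in the sources used here, so its level is uncertain to that extent.

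Of the kinases, only JAK1 in T47D at day 3 was called. JAK1 (chr1:64833229-64966504, minus strand) serves interferon and many cytokine receptors. Its T47D levels were 871.1, 864.0 and 853.0 CPM in the controls, 790.8, 791.9 and 787.5 CPM at day 3, and 850.5, 817.9 and 868.3 CPM at day 15. All day 3 libraries were below all control libraries, while the day 15 libraries overlapped the controls. The log2 fold at day 3 was -0.13 (SE 0.0281, adjusted p 0.0311). This call was lost when any one of the 3 control libraries, the 3 day 3 libraries or day 15 replicate 1 was left out, with adjusted p from 0.0572 to 0.182. In MDA-MB-231 JAK1 ranged from 178.8 to 191.3 CPM, the groups overlapped, and the day 3 interval ran from -0.0206 to 0.087.

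TYK2 (chr19:10350529-10380676, minus strand), the kinase held by IFNAR1, ranged from 28.5 to 33.6 CPM over the 9 T47D libraries, and the groups overlapped. Its log2 fold was -0.04 at day 3 (95% interval -0.157 to 0.0847) and -0.02 at day 15 (95% interval -0.137 to 0.105). In MDA-MB-231 it ranged from 55.9 to 65.4 CPM. The day 15 fold there was -0.10 (SE 0.0426, adjusted p 0.158).

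STAT2 (chr12:56341597-56360155, minus strand) is the STAT that carries the activation domain of ISGF3. Its T47D levels were 61.3, 60.1 and 62.1 CPM in the controls, 99.6, 101.2 and 99.3 CPM at day 3, and 70.9, 72.8 and 70.2 CPM at day 15. The 3 groups did not overlap, with day 3 highest and day 15 between it and the controls. Mean CPM was 1.64 times the control mean at day 3 and 1.17 times at day 15. The log2 fold was 0.71 at day 3 (SE 0.0346, adjusted p 3.47e-09) and 0.22 at day 15 (SE 0.0346, adjusted p 0.00077). From day 3 to day 15 STAT2 fell by 0.49 on the log2 scale (SE 0.0346, adjusted p 6.33e-07).

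IRF9 (chr14:24161053-24166565, plus strand), the DNA-binding subunit of ISGF3, had the largest fold of the 8 members tested in T47D at both times. Its levels were 4.61, 4.19 and 5.19 CPM in the controls, 29.3, 28.0 and 28.6 CPM at day 3, and 14.3, 14.5 and 14.5 CPM at day 15. The groups were far apart, and the SD was 0.631 CPM at day 3 and 0.145 CPM at day 15. The day 3 mean was 6.14 times the control mean and the day 15 mean 3.09 times. The log2 folds were 2.61 (SE 0.0746, adjusted p 5.77e-12) and 1.62 (SE 0.0746, adjusted p 3.32e-09). Between day 3 and day 15 IRF9 fell by 0.98 on the log2 scale (adjusted p 1.19e-06), which left 40.8% of the day 3 difference in mean CPM. The same-strand gene model AL136295.5 shares exon sequence with IRF9, and it had no row of its own in either table.

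IRF7 (chr11:612553-615999, minus strand) amplifies interferon production. T47D levels were 2.29, 1.90 and 2.50 CPM in the controls, 9.40, 9.07 and 10.6 CPM at day 3, and 4.57, 6.70 and 3.95 CPM at day 15. The groups did not overlap, and the day 15 libraries were spread most widely, with an SD of 1.44 CPM. The highest of them was replicate 2, the library that stood apart, and without it the day 15 fold was 0.92 (adjusted p 6.28e-07). Mean CPM was 4.34 times control at day 3 and 2.27 times at day 15. In the fit the log2 fold was 2.09 at day 3 (SE 0.168, adjusted p 5.81e-06) and 1.13 at day 15 (SE 0.168, adjusted p 0.000834). From day 3 to day 15 it fell by 0.96 (SE 0.168, adjusted p 0.00459). The control libraries held 96 to 102 IRF7 reads each.

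IRF1 (chr5:132481609-132490798, minus strand) was low in T47D, at 2.16, 2.22 and 2.40 CPM in the controls. It stood at 4.68, 4.09 and 4.11 CPM at day 3 and at 2.12, 3.23 and 2.44 CPM at day 15. All day 3 libraries were above the others, and the day 15 libraries overlapped the controls. The log2 fold was 0.91 at day 3 (SE 0.141, adjusted p 0.00173). At day 15 it was 0.18, with a 95% interval from -0.128 to 0.479 and an adjusted p of 0.501. From day 3 to day 15 IRF1 fell by 0.73 (SE 0.141, adjusted p 0.00644), a call that was lost without day 3 replicate 1 (adjusted p 0.0515). Of the day 3 difference in mean CPM, 16.6% was left at day 15 for IRF1, 26.1% for STAT2 and 38.1% for IRF7. IRF1 shares exon sequence with C5orf56 and AC116366.3 on the opposite strand.

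In MDA-MB-231 none of the 9 members was called at day 3, where 1.77% of all genes were called in either direction. At an unadjusted p under 0.05, limma gave STAT2 (p 0.0259) and IRF1 (p 0.0482). At day 15, 1 of the 9 was called, IRF1, which was lower, where 4.77% of all genes were called lower and 3.42% higher. IFNAR1 (p 0.0325) and TYK2 (p 0.0311) were under 0.05 unadjusted in the limma fit but were not called. None was called between day 3 and day 15, where 5.33% of all genes were called, and IFNAR2 had an unadjusted p of 0.039. The share of all genes under an unadjusted 0.05 is not reported here, so these p-values were not read as results. The median log2 fold of the 9 members was -0.02 at day 3 and 0.02 at day 15, beside 0.00162 and 0.001 over all genes.

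IRF1 in MDA-MB-231 stood at 35.1, 32.9 and 32.5 CPM in the controls, 30.8, 32.0 and 31.5 CPM at day 3, and 29.7, 30.6 and 29.7 CPM at day 15. The 3 groups did not overlap, with the controls highest. Its log2 fold at day 15 was -0.16 (SE 0.0434, adjusted p 0.0233). Leaving out control replicate 1 or 2, or day 15 replicate 1 or 3, ended the call, with adjusted p from 0.0629 to 0.163.

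IRF9, STAT2 and IRF7, which rose in T47D, had overlapping groups in MDA-MB-231. IRF9 was 12.0, 12.1 and 12.5 CPM in the controls, 11.6, 11.8 and 12.3 CPM at day 3, and 13.02, 11.7 and 12.4 CPM at day 15. Its log2 fold at day 3 was -0.04, with a 95% interval from -0.168 to 0.0933. STAT2 ranged from 52.6 to 60.1 CPM over the 9 libraries, with a day 3 fold of 0.09 (95% interval 0.0119 to 0.172, adjusted p 0.28). IRF7 ranged from 3.06 to 4.47 CPM, and its day 3 interval ran from -0.255 to 0.248. SOCS1 (chr16:11254405-11256200, minus strand) had 1.47, 1.49 and 1.28 CPM in the controls, 1.34, 1.25 and 1.32 CPM at day 3, and 1.35, 1.47 and 1.04 CPM at day 15. These SOCS1 levels rest on 38 to 68 reads per library, and the 95% interval of its day 15 fold ran from -0.491 to 0.212.

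Whether the lines differed in response was tested as the difference of their folds (T47D minus MDA-MB-231) in a limma fit of all 18 libraries over the 12666 genes of both tables. At day 3, 4 of the 8 members in both tables had the higher fold in T47D, IRF9, IRF7, IRF1 and STAT2, where 1.41% of all genes did. JAK1 had the lower fold in T47D, where 1.05% of all genes did. The difference was 2.64 for IRF9 (SE 0.0949, adjusted p 7.2e-15), 2.09 for IRF7, 1.00 for IRF1 and 0.62 for STAT2. At day 15, 3 of the 8 had the higher fold in T47D (IRF9, IRF7 and STAT2), where 4.07% of all genes did, and none had the lower fold, where 5.37% did. Over all genes 311 differences were called at day 3, and 485 without T47D day 15 replicate 2. At day 15, 1196 were called, and 1899 without T47D day 15 replicate 3. The IRF1 difference at day 15 was 0.33 (SE 0.144, adjusted p 0.159). For the receptor chains and TYK2 no difference was called: the day 3 intervals were -0.207 to 0.0226 for IFNAR1, -0.211 to 0.268 for IFNAR2 and -0.17 to 0.145 for TYK2. The day 15 difference of STAT2, 0.20, was no longer called without T47D control replicate 2 (adjusted p 0.0538) or MDA-MB-231 day 15 replicate 3 (adjusted p 0.053), and that of JAK1 at day 3 without MDA-MB-231 control replicate 1 (0.0594) or day 3 replicate 2 (0.0558).

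Levels of different genes were compared per length, as CPM per kilobase of merged exons in GENCODE 29. In the T47D controls JAK1 was highest at 136.6 CPM per kb, followed by IFNAR1 at 22.15, STAT2 at 10.01 and TYK2 at 4.64. IFNAR2 (range 1.194 to 1.493 CPM per kb) and IRF9 (1.105 to 1.367) overlapped, and IRF7 at 0.850 and IRF1 at 0.290 came last. At day 3 IRF9 stood at 7.54 CPM per kb, above TYK2 at 4.52, and IRF7 at 3.68 was above IFNAR2 at 1.31. At day 15 IRF9 was below TYK2 again, at 3.80 against 4.59 CPM per kb, and IRF7 (1.503 to 2.548) overlapped IFNAR2 (1.515 to 1.765).

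In the MDA-MB-231 controls the order per length was JAK1 at 29.2 CPM per kb, IFNAR1 at 14.9, then TYK2 and STAT2, which overlapped (8.971 to 9.662 and 8.682 to 9.017). IRF1 at 4.30, IFNAR2 at 3.59, IRF9 at 3.22, IRF7 at 1.42 and SOCS1 at 0.787 CPM per kb followed. The plot of levels per kilobase shows this order and its spread. Per length, IRF1 thus ranked above IRF9 and IRF7 in MDA-MB-231 and below both in T47D. Before division by length, IRF1 (2.16 to 2.40 CPM) and IRF7 (1.90 to 2.50 CPM) overlapped in the T47D controls. Their order there rests on merged exon lengths of 7799 bases for IRF1 and 2628 for IRF7. The annotation behind the deposited counts is not given in the sources used here. Levels of the lines come from tables normalized separately, so they were set side by side without a test.

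**Figure D3:**
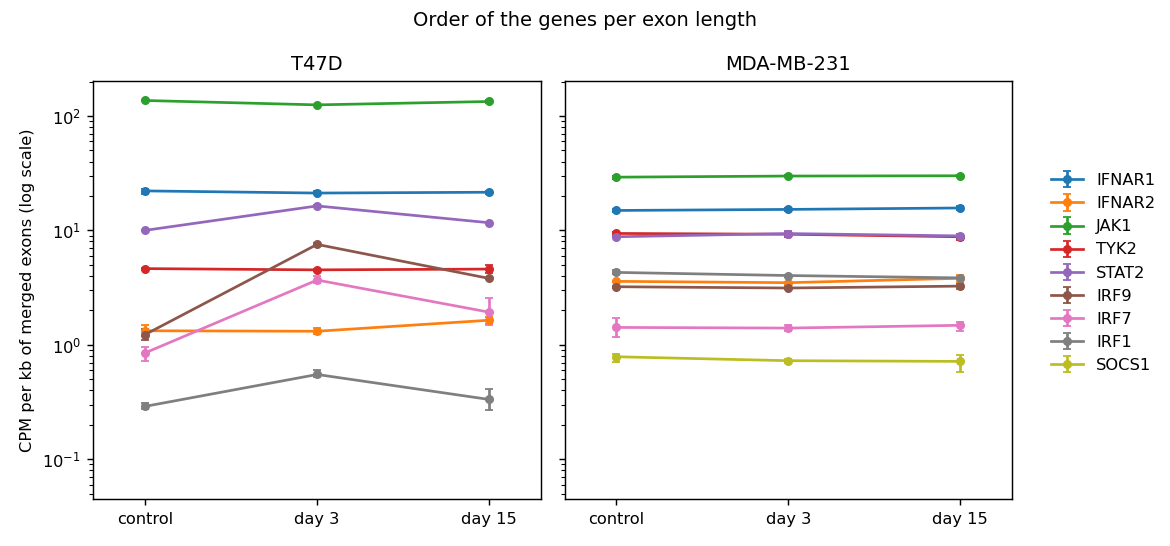
CPM per kilobase of merged exons (y axis, log scale) of each member in each group (x axis) of T47D and MDA-MB-231; points are means of 3 libraries and bars run from the lowest to the highest library. IRF9 moves from 1.23 CPM per kb in the T47D controls to 7.54 at day 3, above TYK2.

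Other genes of the pathway were taken from lists by role, chosen with earlier results of these data known. None of 21 interferon genes was listed in either table, so interferon RNA was not analysed here. In T47D none of the 4 other interferon receptor subunits was called at day 3. At day 15 IFNGR2, a chain of the interferon gamma receptor, had a fold of 0.24 (SE 0.0432, adjusted p 0.00225). In MDA-MB-231 none of the 4 was called at day 3. At day 15 IFNLR1 was called lower there, with a fold of -0.40 (SE 0.0957, adjusted p 0.00926), where 4.77% of all genes were called lower. That call was kept with each library left out and lost without trend and robust moderation of the fit (adjusted p 0.0598).

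Among 7 other IRF genes and IRF2 binding proteins in T47D, IRF2, which can repress interferon-driven transcription, was called at day 3 with a fold of 0.28 (adjusted p 0.0366). That call was lost when any control or day 3 library, or day 15 replicate 1, was left out (adjusted p 0.0556 to 0.236). Of 17 other negative regulators tested in T47D, ISG15 and USP18 rose at day 3 and none fell. Over all genes, 1.16% were called higher and 0.718% lower. ISG15 is a ubiquitin-like interferon-induced protein that also stabilizes USP18, the protease that blocks receptor signaling at IFNAR2. Their folds at day 3 were 4.47 for ISG15 (SE 0.225, adjusted p 4.38e-08) and 1.22 for USP18 (adjusted p 1.56e-07). At day 15 both were still called higher (2.13 and 0.55), and the phosphatase PTPN11 (-0.19) and the SUMO ligase PIAS2 (-0.18) were called lower. Of all genes, 11.2% were then called in either direction. The PIAS2 call was lost without control replicate 1 or 2 or day 15 replicate 1 (adjusted p 0.0645 to 0.115).

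The known targets of ISGF3 rose with its subunits in T47D. All 41 targets tested were called higher at day 3, where 1.16% of all genes were. Their median log2 fold was 2.40, beside -0.00264 over all genes, with a range from 0.412 to 5.58. IFI27, a small interferon-induced membrane protein, had a fold of 5.58, the RNA sensor OAS1 5.50, IFI44 5.09 and XAF1 4.81. At day 15, 40 of the 41 were higher (median 1.18), where 11.2% of all genes were called in either direction. IFI44 was then at 4.82 and OAS1 at 3.82, and MX2 was not called. Between day 3 and day 15, 37 of the 41 fell, where 3.35% of all genes were called lower. The median fold of the 41 was -0.91. Their summed level ranged from 669 to 684 CPM in the controls, from 2521 to 2565 CPM at day 3 and from 1213 to 1282 CPM at day 15. Members of the OAS and IFIT families resemble each other in sequence, so reads may be split between them.

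Of 17 targets of IRF1 and interferon gamma tested in T47D, 11 were higher at day 3 (median 0.34), where 1.16% of all genes were. They were led by the GTPase genes GBP1 at 1.63 and GBP4 at 1.59. The protease CASP1 followed at 1.38 and the MHC class I activator NLRC5 at 1.24. The CASP1 call was lost without day 3 replicate 2 (adjusted p 0.0647) or 3 (0.0596). At day 15, when IRF1 itself was not called, 6 of the 17 were higher and WARS1 was lower, where 11.2% of all genes were called. This count of 7 was 2 without control replicate 2 and 4 without control replicate 1 or 3 or day 15 replicate 1. PSMB9 and PSMB8, subunits of the immunoproteasome, then had folds of 0.75 and 0.64.

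In MDA-MB-231 none of the 7 other IRF genes was called against control at either time. Of 40 ISGF3 targets, SAMD9L was called higher at day 3 (log2 fold 0.22), a call lost without control replicate 2 (adjusted p 0.0604). Of all genes, 1.77% were then called in either direction. At day 15, 3 were higher (SAMD9L, IFI44 and SAMD9) and 4 lower (TRIM22, IFI27, BST2 and LGALS3BP). Of all genes, 3.42% were called higher and 4.77% lower, and TRIM22 was at -0.65. The count of 7 called targets ranged from 4 to 10 with libraries left out in turn, and was 4 without control replicate 1. The IFI27 call was lost without control replicate 1 or 2 or day 15 replicate 1 or 3 (adjusted p 0.0691 to 0.147). The summed level of these targets stayed between 1669 and 1736 CPM in every MDA-MB-231 library. Of 20 targets of IRF1 and interferon gamma tested, the adhesion molecule ICAM1 was the 1 called at day 3, and it was lower. At day 15, 3 were higher (WARS1 at 0.14, GBP3 at 0.105 and B2M at 0.0741), and ICAM1 alone was lower. The calls of GBP3 and B2M were each lost in 7 of the 9 fits with a library left out. ICAM1 had a fold of -0.16 at day 3 and -0.42 at day 15. Its day 3 call was lost without any one of the 6 control and day 3 libraries (adjusted p 0.0504 to 0.174). SOCS2, a relative of SOCS1, was the 1 called gene of 18 other negative regulators (-0.24 at day 15, where 4.77% of all genes were called lower). The plot of folds by pathway list shows these genes beside the members. In the test of the line difference, 39 of 40 ISGF3 targets had the higher fold in T47D at day 3 and 38 of 40 at day 15. Of all genes, 1.41% did at day 3 and 4.07% at day 15.

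**Figure D4:**
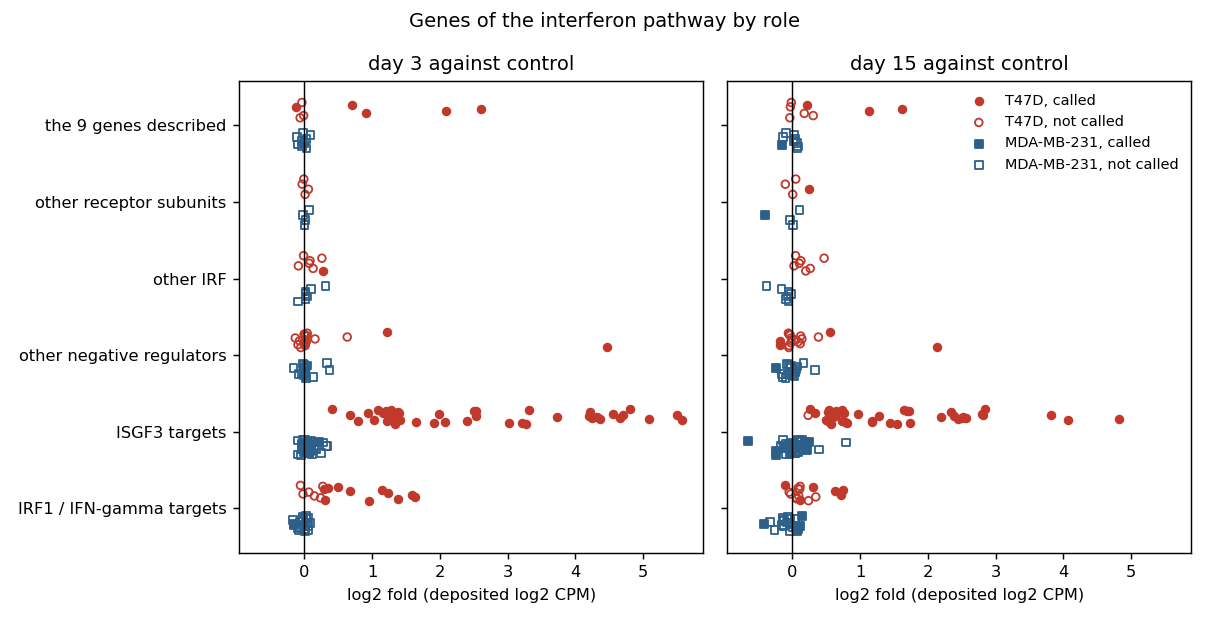
Log2 fold against control (x axis) of every tested gene among the members and in the pathway lists described (rows), at day 3 and day 15 in each line; filled points were called at an adjusted p under 0.05 and open points were not. The ISGF3 targets lie above 0 in T47D, with a median of 2.40 at day 3, and around 0 in MDA-MB-231.

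The genes most like each rising member were taken by Pearson's r over the 9 libraries of a line, among the 12052 genes in T47D with mean log2 CPM of 1 or more. The 9 libraries share 3 groups, so r describes a common pattern over groups. STAT2 was most like SAMHD1 (r = 0.997), followed by ADAR, PLSCR1 and IFI35. IRF9 was most like OAS2 (r = 0.999), followed by UBE2L6, IFI6, IFIT1 and IFIT3. For IRF7 the nearest was PML (r = 0.992), then LGALS3BP, ISG15, HELZ2 and PLAAT4. IRF1 was most like GTPBP2 (r = 0.971), then CMTR1, APOL2, ZNF274 and ADAR (r = 0.938). In MDA-MB-231, over 11818 genes, the nearest genes were GALNT18 for STAT2 (r = 0.953), LOC285442 for IRF9 (r = 0.951), STK25 for IRF7 (r = 0.955) and DHX37 for IRF1 (r = 0.971). There STAT2, IRF9 and IRF7 had overlapping groups and no call, so r need not describe a pattern over groups. Each is the highest r of 11818 genes over 9 libraries, and how high r would reach by chance was not tested.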

How the data were processed

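RNA of 18 libraries was sequenced on an Illumina instrument, per the labels' protocols. STAR, featureCounts and limma, with build GRCh38.p13, are named without versions or roles per the submitters' processing notes. The authors deposited a table of log2 CPM values per line, the unit being read from the values. Normalization, low-expression filtering and strandedness were not given in the sources used here. Subtracting a library-scaled pseudocount of 3 reads turned every deposited value into a whole number of reads within 0.1. The scaling factors show that the tables were normalized separately. In every library the deposited factor matched the trimmed mean of M-values (TMM) factor computed from those reads.

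The 9 members and the pathway lists were chosen with earlier results of these data known. In each line, limma 3.58.1 (R 4.3.3, statmod 1.5.0) was fitted to the 9 deposited columns as group means, with eBayes moderation (trend and robust). A fit of 18 libraries over shared genes gave the line difference. P-values were Benjamini-Hochberg adjusted over all genes of the fit. The text names the members, up to 4 called genes of each list by size of change in a comparison against control, a few others that make up a small count, and up to 5 genes most correlated with each factor. Some results that the rule selects are not reported here. The fit was tested on simulated data. Libraries of a group differed by more than counting noise, so each was counted once. CPM per kb used GENCODE 29 exons, and coordinates are GRCh38. Alternatives changed the scaling, pseudocount, filter, groups fitted, variance model and libraries. An alternative with voom was chosen after seeing the data.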

Additional observations from a re-analysis of the deposited data

Results flagged for a closer look

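For 5 of the 8 members in both tables the response differed between the lines at day 3 or day 15, by the limma test of the difference of log2 folds (T47D minus MDA-MB-231, 18 libraries). Of all genes, 1.41% had the higher fold in T47D at day 3 and 1.05% the lower. At day 15 these shares were 4.07% and 5.37%. The share of all genes called on either day is not reported here. IRF9, the DNA-binding subunit of ISGF3, differed by 2.64 at day 3 (SE 0.0949, adjusted p 7.2e-15) and by 1.60 at day 15 (SE 0.0949, adjusted p 1.25e-10). For IRF7 the difference was 2.09 at day 3 (SE 0.228, adjusted p 2.05e-06) and 1.06 at day 15 (SE 0.228, adjusted p 0.00428). STAT2 differed by 0.62 at day 3 (SE 0.0519, adjusted p 2.69e-08) and by 0.20 at day 15 (SE 0.0519, adjusted p 0.0182). IRF1 differed by 1.00 (SE 0.144, adjusted p 0.00011) and JAK1 by -0.16 (SE 0.0361, adjusted p 0.0148) at day 3, and neither was called at day 15. Each T47D day 3 library of IRF9, IRF7, IRF1 and STAT2 was above all T47D control libraries. The control mean of G0S2 was 0.517 CPM in T47D and 25.2 CPM in MDA-MB-231, and its part in these differences was not tested.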

How the results depend on the processing

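Of 67 member values, 21 were called, and 16 of these were called under every alternative run. Scaling by TMM factors, counted among the alternatives, repeated the main fit because these factors matched the deposited ones. No called value changed sign, and 13 uncalled ones did under at least 1 alternative. The number of members called at day 15 in MDA-MB-231, 1 as reported, was 0 without trend and robust moderation. With the libraries left out in turn, the members called numbered 4 to 5 (T47D day 3), 3 to 4 (T47D day 15), 3 to 5 (T47D day 15 against day 3), 0 to 1 (MDA-MB-231 day 15), 4 to 5 (line difference, day 3) and 2 to 4 (line difference, day 15). JAK1 at day 3 in T47D was also not called without trend and robust moderation (adjusted p 0.187), nor was its line difference (adjusted p 0.0515) or IRF1 at day 15 in MDA-MB-231 (adjusted p 0.0798). JAK1 between day 15 and day 3 in T47D became called with scaling by library size alone (adjusted p 0.0359) or by upper quartile (adjusted p 0.029). The line difference of IRF1 at day 15 was called without T47D day 15 replicate 1, at 0.47 (adjusted p 0.0266).

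Replicate numbers were not taken to pair the libraries, since not every same-numbered pair correlated above 0.1: they ranged from -0.410 to 0.073 in T47D and from -0.031 to 0.280 in MDA-MB-231. Their mean in MDA-MB-231 was 0.106, against -0.053 for other pairs, and a library was most like its own number in 11 of 18 cases there and 3 of 18 in T47D, which is only a hint. With the replicate block, 2 of the 9 MDA-MB-231 members were called at day 15 (IRF1, and TYK2 at an adjusted p of 0.0306). Of all 14308 genes, 2273 were then called, against 1173 without the block. JAK1 at day 3 in T47D was not called with the block (adjusted p 0.129).

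Some uncalled folds changed sign. By library size alone, IFNAR2 in T47D at day 3 was 0.00153, the MDA-MB-231 fold of IRF7 at day 3 was 6.24e-05, and that of JAK1 from day 3 to day 15 was -0.00191. With voom, IRF7 in MDA-MB-231 at day 3 was 0.0135. With libraries left out in turn, the T47D folds ranged from -0.0831 to 0.0761 for IFNAR2 at day 3, and for TYK2 from -0.0731 to 0.0461 at day 15 and from -0.0369 to 0.0822 from day 3 to day 15. Ranges in MDA-MB-231 at day 3 were -0.0575 to 0.0161 for TYK2 and -0.135 to 0.133 for IRF7. At day 15 they were -0.00387 to 0.0518 for STAT2, -0.0211 to 0.0543 for IRF9, -0.0593 to 0.209 for IRF7 and -0.238 to 0.00129 for SOCS1. Between day 15 and day 3 they were -0.000195 to 0.0178 for JAK1 and -0.132 to 0.108 for SOCS1. The line difference at day 3 ranged from -0.0439 to 0.115 for IFNAR2 and from -0.0523 to 0.0214 for TYK2. The cause was not tested.

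Counts of all genes called, in the order day 3, day 15 and day 15 against day 3, were 277, 1659 and 824 in T47D and 253, 1173 and 763 in MDA-MB-231. With only the groups compared fitted, they moved by over 1.5 times to 921, 996 and 463 in T47D and, at day 3 and day 15, to 476 and 776 in MDA-MB-231. With the replicate block they were 637, 2273 and 1788 in MDA-MB-231, and 511 for the last T47D comparison. Without trend and robust moderation they were 63, 232 and 32 in MDA-MB-231, and 549 for that T47D comparison. With libraries left out they ranged from 182 to 746, 930 to 3705 and 403 to 2604 in T47D, and from 119 to 418, 457 to 1897 and 124 to 1664 in MDA-MB-231. The highest T47D counts were those without day 15 replicate 2. No scaling moved the median of all genes by more than 0.0222. SOCS1 has no value under the low-value filter. The planned count-model tests on whole reads were not run; voom was used on those reads. With few reads, small changes of SOCS1, of IRF7 and, in T47D, of IRF1 were not detectable.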
